A study of Mus musculus with 4 samples.

Results

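The subject is a set of 40 imprinted genes of the mouse, led by the long noncoding RNA H19, followed through 4 RNA sequencing libraries of brain. The members were chosen by symbol, and all 40 were found once among the 54532 genes of the files. The tissue came from C57BL/6 mice and was taken outside the tumor mass, as the submitters label it. Young naive and old naive mice carried no tumor, and young tumor-bearing and old tumor-bearing mice had 50000 GL261 cells, a transplantable C57BL/6 glioma line, engrafted into the brain, with tissue collected on day 21. Young mice were 8 to 12 weeks of age, and the range given for old mice, 8 to 90 weeks, starts at the same lower bound. Naive samples bear the GL261 tag too, and were placed by their group tag. Each group was 1 library. The number of mice per library and any pooling are not given in the sources used here. Differences between libraries therefore lack replicates, and groups could not be tested against each other.

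Imprinted genes are expressed mainly or wholly from the copy inherited from the mother or from the father. They lie in clusters in which a region methylated in the egg or the sperm controls several genes at once, often through a long noncoding RNA. Many act on fetal growth and are shut down after birth in most organs, while brain keeps a large set of them active, several mainly in neurons. The parental copy is given here as background, since the files hold no allele information. By that background 21 members are expressed from the paternal copy, 11 from the maternal copy, and 8 are imprinted by tissue or isoform. In the GENCODE M21 annotation 34 of the 40 are protein-coding, and 18 lie on chromosome 7.

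Both of the noncoding RNA clusters that stand out below carry microRNAs, and their sequences show what the host transcripts contain. The precursor of miR-675 lies inside H19, on the minus strand at chr7:142577064-142577147 of GRCm38.p6 (RefSeq), in an exon of 3 of the 7 annotated H19 transcripts. In its hairpin both mature arms are in capitals, and in each mature sequence the seed, bases 2 to 8, is in capitals.
mir-675 hairpin: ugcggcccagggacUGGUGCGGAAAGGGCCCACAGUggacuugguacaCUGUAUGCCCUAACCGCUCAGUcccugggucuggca
miR-675-5p: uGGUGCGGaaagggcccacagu
miR-675-3p: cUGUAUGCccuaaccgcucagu
The Dlk1-Meg3 cluster on chromosome 12 holds microRNA genes that lie antisense to the coding transcript of Rtl1, of which 5 were examined. Mir432 also lies there and was not examined. All 10 mature arms of the 5 have a full complement in the 6358-base Rtl1 transcript, which follows from their position opposite it. Of each of 3 of these genes 1 arm is shown, with its seed in capitals. Its complement starts at base 2642 of the Rtl1 transcript for miR-127-3p, at base 199 for miR-136-5p and at base 3749 for miR-433-3p.
miR-127-3p: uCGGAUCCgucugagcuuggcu
miR-136-5p: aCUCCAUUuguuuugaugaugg
miR-433-3p: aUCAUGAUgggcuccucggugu
The 12 mature arms examined had 12 different seeds, so no group shared one. Mature microRNAs were not measured, because the libraries were made from polyadenylated RNA.

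Levels are FPKM, fragments per kilobase of exon scaled to depth. Recovered fragments in genes ran from 19572261 to 23267928 per library, and 14323 to 14994 genes reached 1 FPKM. Neuron, astrocyte and oligodendrocyte markers were above 0 in all 4 libraries. Other markers differed between libraries. Values in series of 4 are for the young libraries, naive then tumor-bearing, followed by the old libraries, naive then tumor-bearing. The summed level of 8 choroid plexus markers was 417, 402, 7.90 and 462 FPKM, and that of 9 cell cycle markers was 22.6, 28.3, 22.7 and 252 FPKM.

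Of the 40 members, 34 reached 1 FPKM in at least 1 library and 25 reached it in all 4. Of those 34, the old tumor-bearing library held the lowest of the 4 values for 30 (88.2%), where it did for 50.4% of all genes that reached 1 FPKM, and the highest for 2 (H19 and Plagl1), where it did for 33.7% of all genes. Under 4 other scalings it was lowest for 68.6% to 80% of the members, against 35.4% to 44% of all genes. Without H19, the other 39 members together took 0.647%, 0.793%, 0.706% and 0.371% of the fragments in genes. H19 alone took 0.730% in the old tumor-bearing library (95% interval 0.726% to 0.734%). In bulk tissue, fewer cells of a type and less RNA per cell cannot be told apart.

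**Figure D1:**
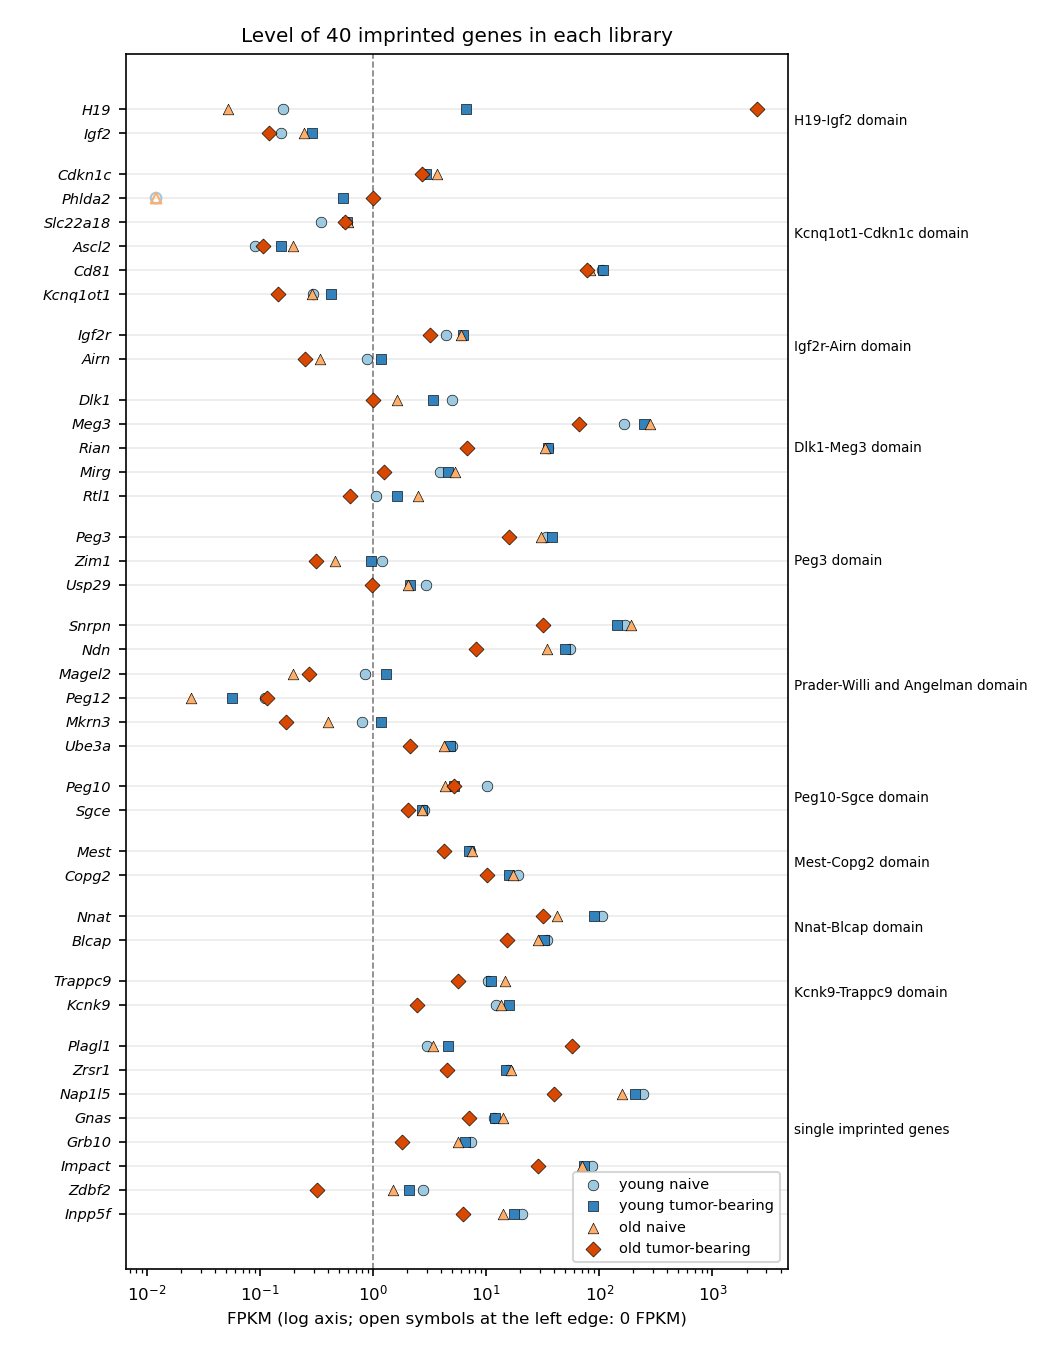
Level of each of the 40 imprinted genes in FPKM on a log axis, 1 symbol per library, grouped by domain, with the dashed line at 1 FPKM and open symbols for values of 0. H19 runs from 0.052 FPKM in old naive to 2497 FPKM in old tumor-bearing brain, Plagl1 stands at 57.6 FPKM there, and most other members have their lowest symbol in that library.

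H19 is a maternally expressed long noncoding RNA that is abundant in the embryo and silenced after birth in most tissues other than skeletal muscle. It lies on the minus strand at chr7:142575529-142578143 (mm10). Its level was 0.159, 6.54, 0.052 and 2497 FPKM, from 8, 322, 2 and 142841 reads. The naive libraries were near the limit of detection, the young tumor-bearing one was at a moderate level, and in the old tumor-bearing one H19 held rank 3 of all genes by FPKM, rank 2 by reads and rank 1 among long noncoding RNAs. In young brain the tumor-bearing library was 41.1-fold higher than the naive one (20.6 to 96.1). A range in parentheses beside a ratio is, here and below, its exact 95% interval from the reads, for counting error alone. In old brain the ratio was 48056-fold (13303 to 396816), the interval being wide because the naive value rests on 2 reads. Between the tumor-bearing libraries the old one was 382-fold higher (342 to 427). On the scale used for all genes, log2 of FPKM + 0.1, the old tumor ratio of H19 was 14, rank 1 of 16488 genes, and the young one was 4.68, rank 38 of 15500.

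Igf2, the paternally expressed growth factor that shares enhancers with H19, did not follow it. Igf2 stood at 0.154, 0.288, 0.246 and 0.12 FPKM, from 18, 33, 22 and 16 reads, and never reached 1 FPKM. It shares 64.5% of its exon bases with other annotated genes, so its own level is uncertain. The ratio of Igf2 to H19 in FPKM was 0.967 in young naive, 0.0441 in young tumor-bearing and 4.73 in old naive brain, and 4.81e-05 in old tumor-bearing brain. The microRNA gene Mir675 itself had 0 reads in all 4 libraries, as did Gm27483 and Gm27786, short RNA genes that also lie within H19. The rule by which reads of nested genes were assigned is not given in the sources used here, and the 0 does not bear on miR-675.

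Within 150 kb of H19, 17 genes are annotated. Among the longer genes, leaving out short RNAs, 7 entered the old tumor comparison, which a gene does by reaching 1 FPKM in either library. Leaving out H19 itself, 5 of the other 6 were at least 2-fold higher in the old tumor-bearing library and 0 were lower, where 20.6% of all genes were higher in that comparison. Tnni2, the fast skeletal muscle troponin I, was at 0.131, 0.134, 0.171 and 7.38 FPKM, 43.2-fold higher in old tumor-bearing than in old naive brain (16.7 to 160). Tnnt3, the fast skeletal muscle troponin T, was at 0.185, 0.221, 0.0404 and 4.46 FPKM, with 164 reads against 1 (ratio 110, 19.5 to 4385). Both troponins were low in the 3 other libraries. Lsp1, a leukocyte actin-binding protein, was at 0.596, 1.08, 1.57 and 8.95 FPKM, 5.71-fold higher (4.74 to 6.91). Syt8, a synaptotagmin, had 0, 1, 0 and 150 reads. Against the limit of 3 reads that a count of 0 allows, old tumor-bearing was 33.6-fold higher than old naive brain. The exact interval of that ratio starts at 27.0. Mrpl23, a mitochondrial ribosomal protein gene between H19 and the troponins, was at 5.51, 5.14, 5.75 and 6.14 FPKM, a ratio of 1.07 (0.947 to 1.21). Mrpl23 thus lies between genes that were higher in the old tumor-bearing library and was itself at a similar level in all 4. With so few genes, nothing particular to the region is read from the count. Of 10 skeletal muscle markers, a list added after these values were seen, 2 entered the comparison. Acta1, skeletal muscle actin, was lower there (4.62, 3.32, 7.20 and 0.896 FPKM) and Mylpf, a fast muscle myosin light chain, was higher (0.645, 0.80, 0.421 and 1.78 FPKM).

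**Figure D2:**
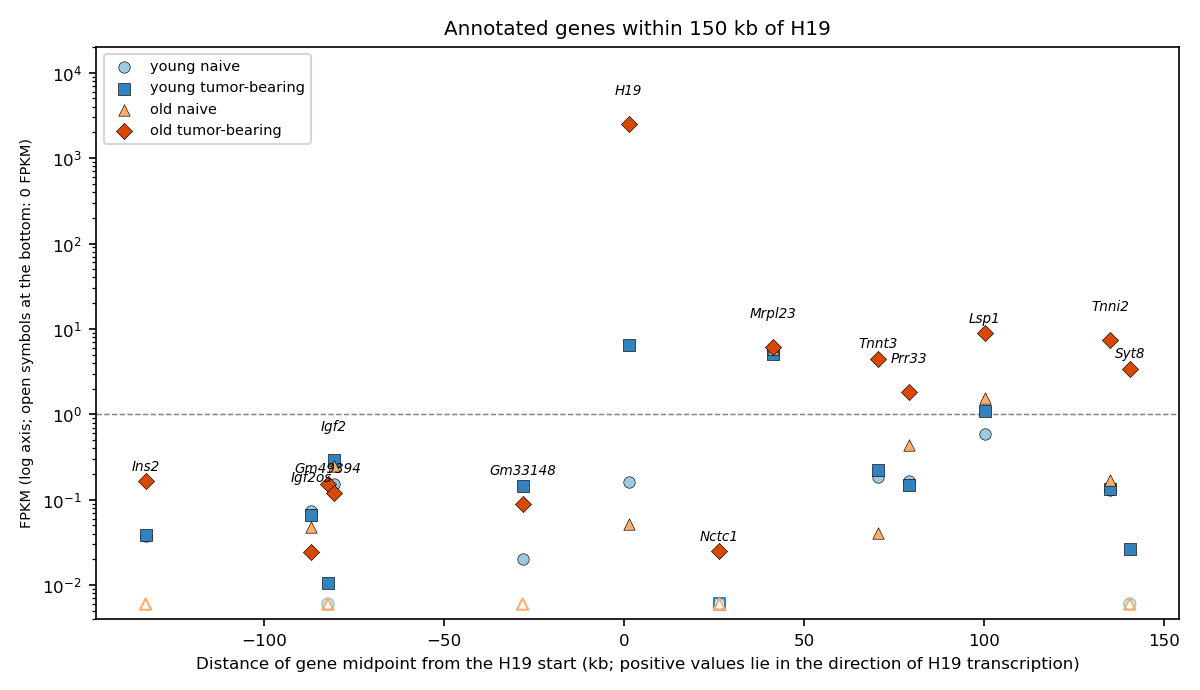
FPKM on a log axis of the longer annotated genes within 150 kb of H19, by distance of the gene midpoint from the H19 start, 1 symbol per library, with the dashed line at 1 FPKM and open symbols for 0. H19 (2497 FPKM), Tnni2, Tnnt3, Lsp1, Prr33 and Syt8 stand highest in the old tumor-bearing library, while the 4 symbols of Mrpl23 lie close together and Igf2 stays under 1 FPKM.

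Plagl1 encodes a zinc finger transcription factor, also called Zac1, that is paternally expressed and is known in the mouse to regulate other imprinted genes, H19 and Igf2 among them. It lies at chr10:13060504-13131694 on the plus strand. Its level was 3.01, 4.62, 3.36 and 57.6 FPKM, from 481, 723, 411 and 10467 reads. The old tumor-bearing library stood apart from 3 similar ones. The old tumor ratio was 17.1-fold (15.5 to 19) and the young one 1.54-fold (1.37 to 1.73). Genes within 150 kb of Plagl1, a neighbourhood chosen after its values were seen, were read too. Among them 5 longer genes other than Plagl1 entered the old tumor comparison. Of these 3 were at least 2-fold higher, where 20.6% of all genes were. Stx11, a syntaxin of immune cells, had 2 reads in old naive and 314 in old tumor-bearing brain (ratio 106, 29.0 to 876). Ltv1, a ribosome assembly factor, was 2.78-fold higher (2.40 to 3.23). Phactr2, an actin and phosphatase regulator, stood at 3.10 and 2.11 FPKM in the old libraries.

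Across the set, the old tumor comparison had 30 members that entered. Of these, 2 were at least 2-fold higher (H19 and Plagl1), where 20.6% of all genes were, and 15 were at least 2-fold lower, where 31.4% of all genes were. The median log2 ratio of the members was -0.99, beside -0.31 for all genes that entered. The deposited scale bears on this split. Under 4 other ways of scaling the libraries the median of all genes moved up by 0.33 to 0.64 on the log2 scale. Taken singly, these scalings put 26.1% to 32.2% of all genes at least 2-fold higher and 19.3% to 24.6% at least 2-fold lower. H19 and Plagl1 remained at least 2-fold higher under each, and 11 of the 15 remained at least 2-fold lower under each. Those 11 were Snrpn, Kcnk9, Rian, Meg3, Mirg, Ndn, Nap1l5, Rtl1, Zdbf2, Zrsr1 and Grb10. Gnas, Impact, Inpp5f and Trappc9 were at least 2-fold lower on the deposited scale but not under all scalings. The sign of the ratio itself turned with scaling for Cd81, Cdkn1c, Nnat and Sgce.

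The young tumor comparison was quiet outside H19. Of 34 members that entered, 1 was at least 2-fold higher (H19), where 5.05% of all genes were, and 0 were at least 2-fold lower, where 1.85% of all genes were. The median was -0.04, beside -0.01 for all genes, which other scalings moved by 0.02 to 0.06. Peg10, a retrotransposon-derived gene needed in the placenta, came closest to the lower bound, at 10.1 and 5.19 FPKM in young naive and young tumor-bearing brain, 1.95-fold lower (1.78 to 2.14). In old naive and old tumor-bearing brain Peg10 was at 4.29 and 5.13 FPKM.

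**Figure D3:**
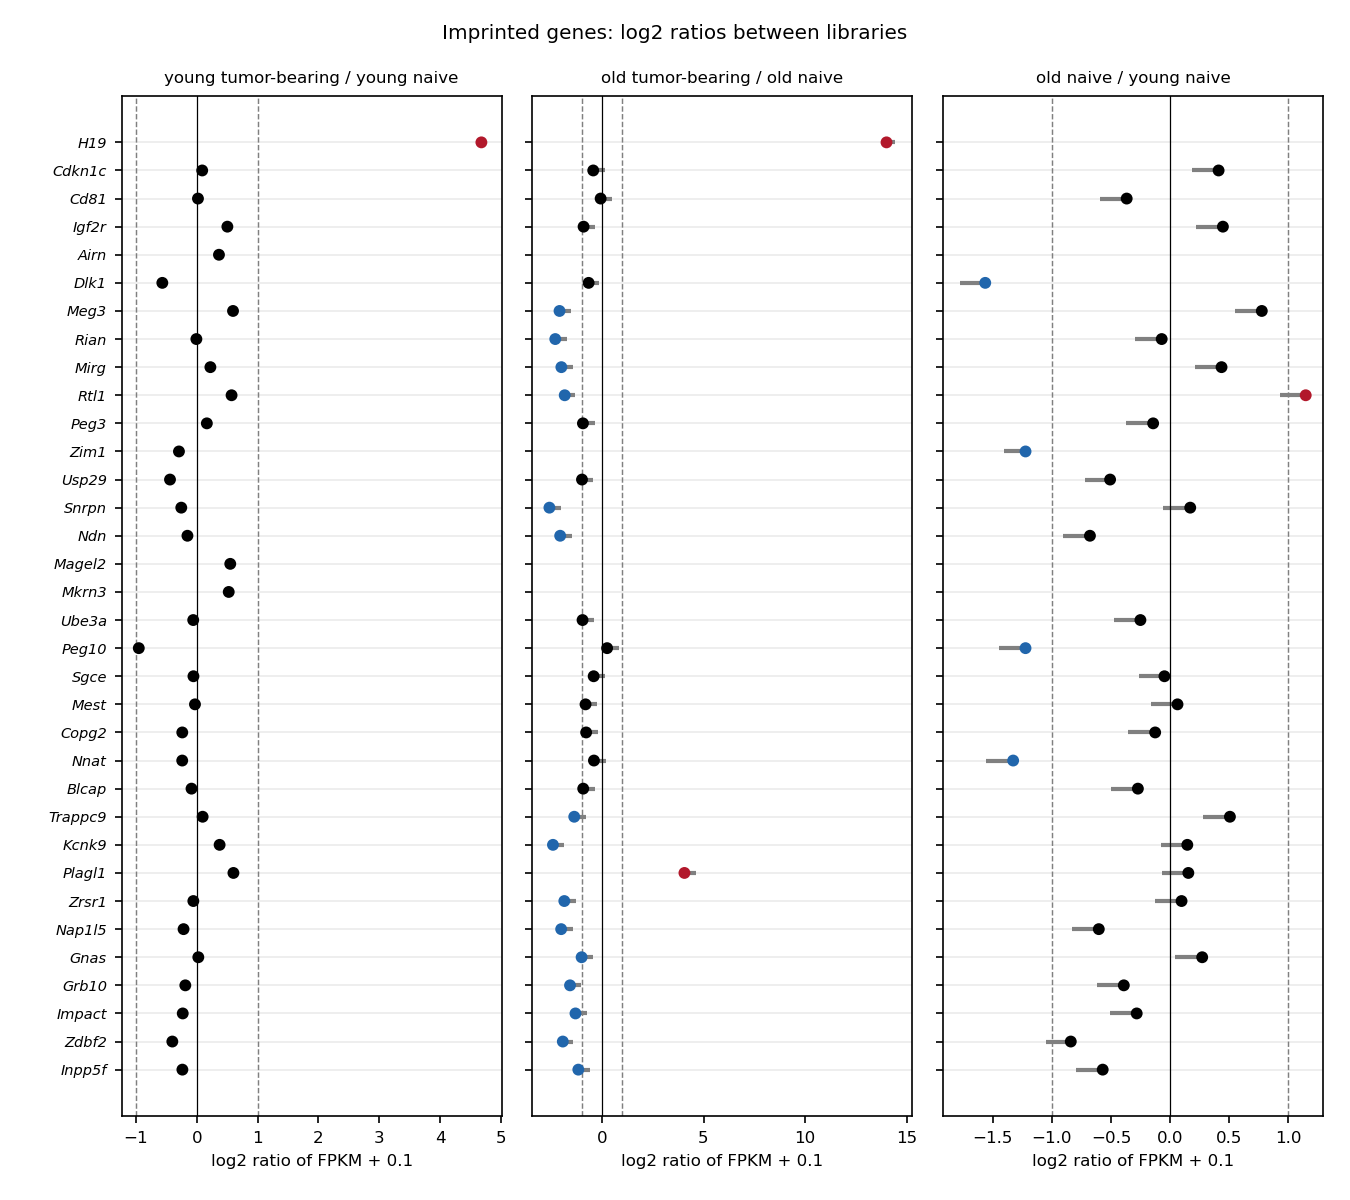
Log2 ratio of FPKM + 0.1 of each member that entered, for young tumor-bearing over young naive, old tumor-bearing over old naive and old naive over young naive brain, with dashed lines at a 2-fold difference and grey bars for the range over 5 scalings. Each panel has its own axis range. Red points are at least 2-fold higher and blue points at least 2-fold lower, namely 1 and 0 in the first panel, 2 and 15 in the second and 1 and 4 in the third.

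In the Dlk1-Meg3 cluster 4 of 5 members were at least 2-fold lower in old tumor-bearing than in old naive brain, where 31.4% of all genes were. Its noncoding RNAs come from the maternal copy. Meg3, the long noncoding RNA that gives the cluster its name, lies at chr12:109541001-109571726 on the plus strand and stood at 164, 247, 280 and 65.8 FPKM. Rian, a host of small nucleolar RNAs, stood at 34.9, 34.8, 33.3 and 6.69 FPKM. Mirg, a host of microRNAs, stood at 3.87, 4.54, 5.27 and 1.24 FPKM. All 3 had their lowest level in the old tumor-bearing library, 4.26-fold lower than in old naive brain for Meg3 (4.20 to 4.32), 4.97-fold for Rian (4.77 to 5.19) and 4.23-fold for Mirg (3.61 to 4.98). The ratio of Meg3 to Mirg stayed within 42.3 to 54.5 in the 4 libraries, while that of Meg3 to Rian was 4.68, 7.11, 8.42 and 9.84.

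The coding genes of that cluster come from the paternal copy. Rtl1, a retrotransposon-derived gene and the antisense partner of the microRNAs printed above, was at 1.06, 1.63, 2.47 and 0.622 FPKM. It was 3.97-fold lower in old tumor-bearing than in old naive brain (3.12 to 5.11). Rtl1 was also 2.33-fold higher in old naive than in young naive brain (1.88 to 2.89), though not by 2-fold under every scaling. Dlk1, a membrane protein related to Notch ligands, was at 5.01, 3.35, 1.63 and 0.996 FPKM. Like its neighbours it was lowest in the old tumor-bearing library. Unlike them it was 3.08-fold lower in old naive than in young naive brain (2.56 to 3.72). The old libraries differed 1.63-fold (1.28 to 2.09). The ratio of Meg3 to Dlk1 accordingly ran from 32.7 in young naive to 172 in old naive brain. Between Dlk1 and Mirg 104 genes are annotated, 66 of them microRNA genes and 23 small nucleolar RNA genes. The microRNA genes had 138, 152, 158 and 91 reads in all, with 27 at 0 in every library, and the small nucleolar RNA genes had 58, 111, 56 and 20 reads. Of 6 longer genes that entered the old tumor comparison, 5 were at least 2-fold lower, where 31.4% of all genes were. Dlk1 was the exception. Among the 5, Gm34081 is not a member and rests on 11 reads in old naive and 2 in old tumor-bearing brain.

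In the chromosome 7 cluster whose loss causes Prader-Willi or Angelman syndrome in humans, the 2 most abundant members were lower in the old tumor-bearing library. Snrpn, a neuronal splicing protein gene, was at 170, 142, 191 and 31.8 FPKM, 6.02-fold lower in old tumor-bearing than in old naive brain (5.70 to 6.36). Reads of Snrpn are uncertain because 34.1% of its exon bases are shared with other genes, Snurf among them. Ndn, a MAGE family protein of postmitotic neurons, was at 55.0, 49.4, 34.3 and 8.17 FPKM, 4.20-fold lower (3.85 to 4.58). Ube3a, the ubiquitin ligase expressed from the maternal copy in neurons, was at 5.02, 4.82, 4.20 and 2.12 FPKM, 1.98-fold lower (1.83 to 2.15), and shares 27.3% of its exon bases with others, the antisense transcript Snhg14 among them. The 3 others were low. Magel2, a MAGE gene of the hypothalamus, was at 0.845, 1.28, 0.193 and 0.269 FPKM. Mkrn3, a ring finger gene that restrains puberty in humans, was at 0.787, 1.18, 0.401 and 0.169 FPKM. Both stood higher in the young libraries, and neither reached 1 FPKM in old brain. Peg12 had 6, 3, 1 and 7 reads.

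Igf2r encodes the receptor that clears IGF2, and Airn lies antisense to it. Igf2r ranged from 3.16 FPKM in old tumor-bearing to 6.24 FPKM in young tumor-bearing brain. Airn, the paternal noncoding RNA that silences Igf2r in tissues other than neurons, was at 0.884, 1.17, 0.338 and 0.251 FPKM, from 65, 84, 19 and 21 reads. Airn was 4.65-fold lower in old than in young tumor-bearing brain (2.86 to 7.90).

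The Kcnq1ot1-Cdkn1c cluster adjoins H19 on chromosome 7. Cd81, a tetraspanin made by many cell types, ranged from 78.3 to 107 FPKM, and Cdkn1c, a cell cycle inhibitor, from 2.72 to 3.70 FPKM. Neither was 2-fold apart in any comparison. The remaining 4 stayed under 1 FPKM. Phlda2, a placental growth inhibitor, had 0 reads in both naive libraries and 12 and 26 reads in the young and old tumor-bearing ones. Against the limit of 3 reads for a count of 0, it was 4.09-fold higher in young and 5.83-fold higher in old tumor-bearing brain. The exact intervals start at 2.84 and 4.41. Kcnq1ot1, the long RNA that silences the cluster, had 561, 787, 419 and 310 reads spread over a very long exon. Slc22a18, a transporter-like gene, had 12, 20, 16 and 22 reads, and Ascl2, a transcription factor of trophoblast, had 3, 5, 5 and 4.

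In the Peg3 cluster of chromosome 7, Peg3, a zinc finger gene, was at 33.9, 38.0, 30.7 and 16.0 FPKM, 1.92-fold lower in old tumor-bearing than in old naive brain (1.85 to 1.99). Usp29, a ubiquitin protease gene, was at 2.93, 2.13, 2.03 and 0.978 FPKM, and Zim1, a zinc finger gene, at 1.20, 0.965, 0.458 and 0.314 FPKM. Zim1 was thus higher in the young libraries. Nnat, neuronatin, was at 105, 89.3, 41.9 and 31.9 FPKM, again higher in the young libraries. Its host gene Blcap was at 34.7, 32.6, 28.7 and 15.1 FPKM. Mest, a hydrolase-like gene, ranged from 4.24 to 7.50 FPKM and its antisense neighbour Copg2, a coat protein subunit, from 10.04 to 18.9 FPKM. Sgce, a sarcoglycan gene next to Peg10, ranged from 2.02 to 2.81 FPKM.

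Kcnk9, a maternally expressed potassium channel of neurons, was at 12.1, 15.7, 13.4 and 2.44 FPKM, 5.50-fold lower in old tumor-bearing than in old naive brain (5.05 to 5.99). Its neighbour Trappc9, a subunit of a membrane traffic complex, was at 10.4, 11.1, 14.7 and 5.67 FPKM, 2.60-fold lower (2.41 to 2.81). Both had their lowest level in the same library. Nap1l5, a gene related to histone chaperones, was at 242, 208, 159 and 39.5 FPKM, 4.03-fold lower (3.81 to 4.26). Zdbf2 was at 2.75, 2.06, 1.49 and 0.319 FPKM, 4.68-fold lower (3.70 to 5.97). Zrsr1, a splicing factor retrogene, was at 15.5, 14.9, 16.6 and 4.52 FPKM, 3.67-fold lower (3.29 to 4.09). Grb10, an adaptor that restrains insulin and IGF signalling and is paternally expressed in neurons, was at 7.36, 6.45, 5.58 and 1.81 FPKM, 3.08-fold lower (2.72 to 3.49). Nap1l5, Zdbf2, Zrsr1 and Grb10, together with Impact, Inpp5f and Gnas, gave 7 of the 15 lower members. Impact, a regulator of translation, was at 85.3, 72.7, 70.1 and 28.3 FPKM, 2.47-fold lower, with no interval because its values did not come in whole reads. Inpp5f, a phosphoinositide phosphatase, was at 20.7, 17.6, 13.9 and 6.17 FPKM, 2.26-fold lower (2.10 to 2.43). Gnas, the G protein subunit that stimulates adenylyl cyclase, was at 11.6, 11.8, 14 and 6.96 FPKM, 2.02-fold lower (1.90 to 2.14), with 22% of its exon bases shared with genes such as its antisense transcript.

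Fewer members were at least 2-fold apart between the naive libraries than in the old tumor comparison. The part of age in these differences was not tested. In old against young naive brain, of 30 members that entered, 1 was at least 2-fold higher (Rtl1), where 6.71% of all genes were, and 4 were at least 2-fold lower, where 4.93% of all genes were. The 4 were Dlk1, 3.08-fold lower (2.56 to 3.72), Zim1, 2.63-fold (1.95 to 3.58), Nnat, 2.51-fold (2.36 to 2.68), and Peg10, 2.37-fold (2.13 to 2.64), at 10.1 FPKM in young naive and 4.29 FPKM in old naive brain. All 4 remained at least 2-fold lower under each scaling. The median of the members was -0.13, beside 0.06 for all genes. Marker lists differed in the same comparison. Of 9 hypothalamus markers that entered, 5 were at least 2-fold lower in old naive brain and 0 were higher, with a median log2 ratio of -1.02. Hcrt, the orexin neuropeptide, chosen after its values were seen, was at 8.10 FPKM in young naive and 0.256 FPKM in old naive brain. The summed level of the list went the other way, from 321 to 405 FPKM, and most of that sum was Sst, somatostatin, at 227 and 298 FPKM, and Npy, neuropeptide Y, at 54.0 and 93.0 FPKM, neuropeptides that cortical neurons also make. Of 7 choroid plexus markers that entered, 0 were at least 2-fold higher and 7 were at least 2-fold lower. The part of either tissue in the 4 members was not tested. In the young tumor comparison, where 5 of 9 hypothalamus markers were also lower, Dlk1 was 1.49-fold lower (1.31 to 1.71) and Nnat 1.18-fold lower (1.13 to 1.24).

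More members were at least 2-fold apart between the old and young tumor-bearing libraries than in the other comparisons. Of 33 members that entered, 2 were at least 2-fold higher in the old one (H19 and Plagl1), where 19% of all genes were, and 22 were at least 2-fold lower, where 29.8% of all genes were. The median was -1.36, beside -0.28 for all genes. Of the 22, 16 remained at least 2-fold lower under each scaling, with the share of all genes under the other scalings not given here. Mkrn3 was 6.98-fold lower (3.54 to 15.3), Zdbf2 6.46-fold (5.17 to 8.13), Kcnk9 6.46-fold (5.96 to 7.01) and Ndn 6.05-fold (5.58 to 6.57). Magel2, at 4.77-fold lower (3.16 to 7.43), and Nap1l5, at 5.27-fold (5.0 to 5.55), were also among the 16. This comparison shares its libraries with the tumor comparisons above, so it is not separate evidence. The old tumor log2 ratio minus the young one was at or below -1 for 17 of 34 members, where 32% of all genes were, and at or above 1 for 3, where 19.3% of all genes were. For H19 the difference was 9.32 and for Plagl1 3.46.

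Neuron markers moved with the lower members. In the old tumor comparison 11 of 12 neuron markers were at least 2-fold lower and 0 higher, with a median log2 ratio of -2.52, and their summed level was 1316, 1150, 1624 and 329 FPKM with none at 0. Relative to the neuron markers, a scaling added after the values were seen, all values of the old tumor-bearing library move up together. On it 22 of 33 members that entered were at least 2-fold higher, where 81.6% of all genes were, and 0 were lower, where 1.08% of all genes were. The members' median was 1.45, beside 2.29 for all genes. Between old and young tumor-bearing brain 15 of the members were at least 2-fold higher on it, where 77.3% of all genes were, and 0 were lower, where 1.53% were. The old minus young ratio was at or above 1 for 20 members, where 75.5% of all genes were, and at or below -1 for 0, where 2.44% were. Of the 15 lower members, 14 were lower by less than the neuron markers were, with values relative to them from 0.015 for Kcnk9 to 1.45 for Gnas, and Snrpn was lower by more, at -0.11. Astrocyte markers had a median of -0.96 with 4 of 8 at least 2-fold lower, and oligodendrocyte markers a median of -0.42 with 0 of 9 lower. Endothelial markers had a median of -0.75 with 3 of 7 lower, and pericyte and fibroblast markers a median of -0.15 with 4 of 10 lower and 2 higher.

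Other lists stood wholly or in part on the side of H19 and Plagl1. All 9 cell cycle markers were at least 2-fold higher in the old tumor comparison, with a median of 6.26, and Top2a, the topoisomerase of dividing cells, was at 0.185, 2.11, 0.113 and 49.9 FPKM. All 7 T and NK cell markers were higher, with a median of 4.19 and a summed level of 0.838, 4.36, 0.570 and 40.8 FPKM. Of 8 microglia and macrophage markers 4 were higher and 0 lower, with a median of 1.14. Of 7 choroid plexus markers that entered 6 were higher, with a median of 3.10. Their sum was low in old naive brain alone (417, 402, 7.90 and 462 FPKM), unlike the levels of H19 and Plagl1. Neural progenitor markers were split, with 3 higher and 3 lower of 7. Vim, the intermediate filament vimentin, was at 19.6, 49.6, 10.1 and 347 FPKM. Vim thus made up most of the list's sum of 422 FPKM in the old tumor-bearing library, so that sum does not show the split. Like H19, 4 marker lists had a higher sum in young tumor-bearing than in young naive brain and their highest in the old tumor-bearing library. A list of 15 genes that maintain imprints or DNA methylation did the same, at 113, 123, 117 and 177 FPKM. The 4 marker lists were the cell cycle, the T and NK cell, the microglia and macrophage (64.2, 102, 90.8 and 375 FPKM) and the neural progenitor markers (51.5, 84.0, 50.7 and 422 FPKM). Astrocyte markers (977, 1007, 796 and 416 FPKM) were also higher in young tumor-bearing than in young naive brain. So were pericyte and fibroblast markers (59.6, 64.5, 54.6 and 34.0 FPKM). Both lists had their lowest sum in the old tumor-bearing library. The part of these cells in the levels of H19 and Plagl1 was not tested.

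**Figure D4:**
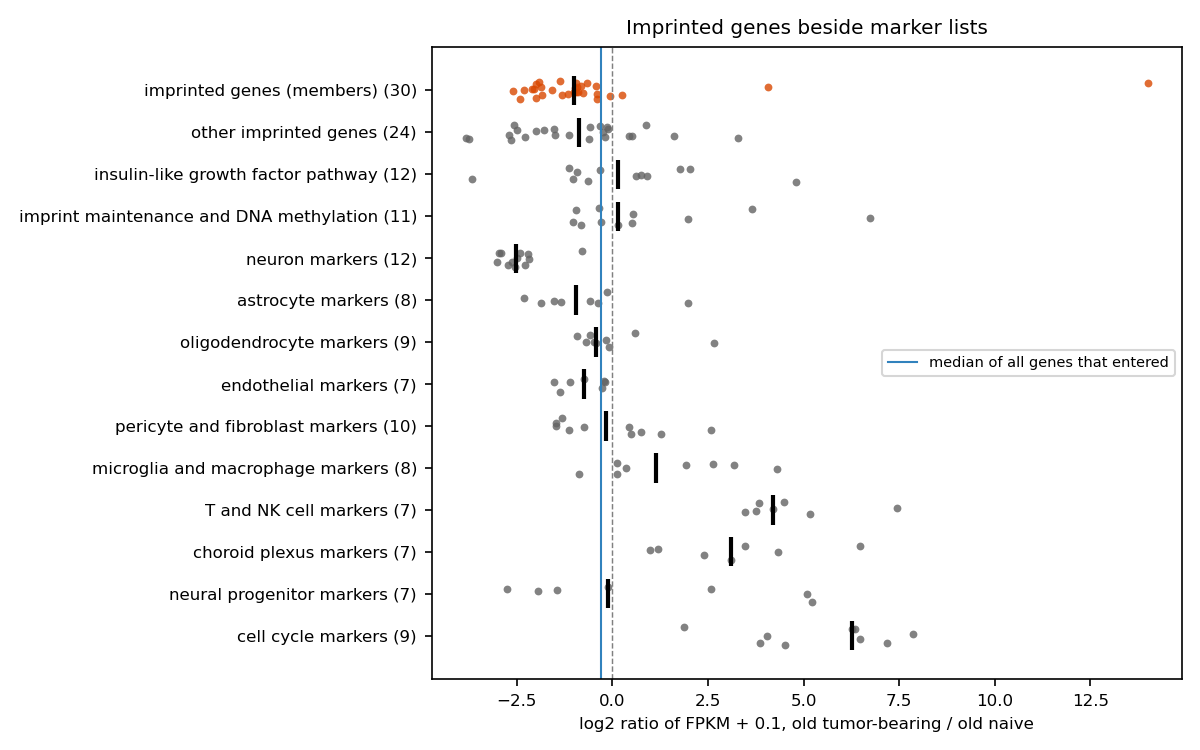
Log2 ratio of FPKM + 0.1 of old tumor-bearing over old naive brain for the members and for comparison lists, 1 point per gene that entered with the number in parentheses, black bars at the list medians and the blue line at the median of all genes. The members' median of -0.99 lies between that of the neuron markers (-2.52) and that of all genes (-0.31), with H19 (14) and Plagl1 (4.06) far to the right.

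Genes linked to the members by function were mixed. Of 18 genes of the insulin-like growth factor pathway 12 entered the old tumor comparison, with a median of 0.14. At least 2-fold higher were 3, where 20.6% of all genes were, and lower were 3, where 31.4% were. Igf2bp2, an RNA-binding protein of the Igf2 and H19 transcripts, was at 0.152, 0.345, 0.181 and 7.75 FPKM, 42.7-fold higher (27.8 to 69.3). Its relative Igf2bp3 was at 0.905, 1.03, 0.721 and 2.70 FPKM, 3.74-fold higher (2.99 to 4.73). Both RNA-binding proteins were highest in the library in which H19 was highest. Igfbp3, a carrier of IGFs, was at 5.73, 5.85, 3.29 and 13.6 FPKM, and Igfbp6, a carrier that prefers IGF2, was at 27.7, 17.4, 52.6 and 4.02 FPKM.

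Of 15 genes that maintain imprints or DNA methylation, 11 entered the old tumor comparison, with a median of 0.16. At least 2-fold higher were 3, where 20.6% of all genes were, and 1 was lower, where 31.4% were. Uhrf1, which brings DNA methyltransferase to newly copied DNA, was at 0.126, 1.56, 0.270 and 39.2 FPKM, 145-fold higher (91.7 to 245). Dnmt1, the maintenance methyltransferase, was at 9.15, 11, 11.4 and 45.5 FPKM, 3.99-fold higher (3.76 to 4.23). Hells, a chromatin remodeller that aids DNA methylation, was at 0.645, 0.861, 0.302 and 4.92 FPKM. These 3 are expressed in dividing cells, and they were high in the library in which all cell cycle markers were. Tet2, a demethylating enzyme, was lower, at 2.76, 3.14, 3.01 and 1.43 FPKM.

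Of 33 further imprinted genes that are not members, 24 entered the old tumor comparison. Of these 2 were at least 2-fold higher, where 20.6% of all genes were, and 12 lower, where 31.4% were. Their median was -0.87, beside -0.99 for the members. Htr2a, a serotonin receptor, was at 6.09, 3.54, 7.99 and 0.468 FPKM. Cobl, an actin nucleator, was at 11.6, 9.70, 22.4 and 1.58 FPKM, and Slc22a3, an organic cation transporter, at 0.596, 0.332, 1.18 and 0.0953 FPKM. All 3 had their lowest level in old tumor-bearing brain. Sfmbt2, a Polycomb group gene, went the other way, at 0.402, 0.668, 0.196 and 2.80 FPKM, 14.3-fold higher (9.79 to 21.7).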

How the data were processed

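Polyadenylated RNA of mouse brain was sequenced as paired-end Illumina libraries, 1 per group, and the groups were taken from the labels. The deposited values were FPKM, 1 column per library, per the file headers. Alignment with HISAT2 to mm10 is given in the submitters' processing notes. Counter, annotation, filters and pooling are not given in the sources used here. Per the labels' protocols either a directional or a non-directional preparation was made, with no word on which, and overlapping antisense genes cannot be told apart.

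GENCODE M21 supplied symbols, coordinates and exon lengths, and matched 54495 of 54532 genes. FPKM times exon length came in whole steps of 1 read, which gave each library's divisor (20445811, 19999587, 15646445 and 23253750) and reads. Of 32867 genes above 0, 97.1% came out whole in all 4 libraries within 0.03 reads or 2e-05 of the value. The divisor was 0.879, 0.914, 0.797 and 1.19 times the fragments in genes. What it counts is not given in the sources used here, and a high divisor lowers every FPKM of a library.

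To enter a comparison a gene had to reach 1 FPKM in either library. Log2 ratios were of FPKM + 0.1, which shrinks the differences of low genes. Differences of 2-fold or more on that scale were counted among members and among all genes. Folds leave out the 0.1 and carry exact conditional binomial 95% intervals, which treat reads as independent although no molecular identifiers were used. Where the lower library had a count of 0, the fold was taken against 3 reads there. The lower bound of that interval is given beside it. Other scalings, pseudocounts and floors were tried as alternatives. The steps were tested on simulated data. Python 3.11.15, pandas 2.3.3, numpy 2.4.6 and SciPy 1.17.1 were used. Sequences are from RefSeq (GRCm38.p6), and shared exon bases were computed from GENCODE.

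All members were named, with 4 values where 2-fold apart in a comparison, with reads where under 1 FPKM throughout, and otherwise by range. From each other list up to 4 genes with the largest absolute old tumor log2 ratio were taken. Other genes, such as Hcrt and the neighbours of H19 and Plagl1, were chosen after their values were seen. The members and lists were chosen with earlier results of these data known.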

Additional observations from a re-analysis of the deposited data

Results flagged for a closer look

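Of 29 members compared in both ages, 11 had a tumor log2 ratio of opposite sign in young and old brain on the deposited scale. For 8 of them the counting interval of the ratio left out 1 in both ages and the sign held under all 5 scalings, and only these are given. The same counts over all genes are not given here, so nothing particular to the members is read from them. With 1 library per group the difference was not tested. Old minus young, the difference was -1.409 for Igf2r, -2.685 for Meg3, -2.222 for Mirg, -2.406 for Rtl1, -1.103 for Peg3, -1.461 for Trappc9 and -2.788 for Kcnk9. These 7 were higher in young tumor-bearing than in young naive brain, by 0.10 (Trappc9) to 0.60 (Meg3), and lower in old tumor-bearing than in old naive brain. Peg10 went the other way, at -0.95 in young and 0.25 in old brain, a difference of 1.206.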

How the results depend on the processing

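No paired analysis was possible because each group was 1 library. With 1 library per group, counting intervals do not cover differences between mice, and a gene under about 10 reads has a wide interval. The highest member of the old tumor comparison was H19 under every scaling, pseudocount and floor tried. The alternatives were 4 other scalings (median of ratios, fragments in genes, equal FPKM totals, and equal totals without mitochondrial and the 50 highest genes), pseudocounts of 1 and 0.01, and floors of 5 FPKM and none. Added after the data were seen were a repeat without members sharing over 10% of exon bases and a scaling to 12 neuron markers. Of the values that summarise a comparison, 111 stayed close, and the others follow. The cause was not tested.

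The members' median log2 ratio in the old tumor comparison, -0.99, was -0.65, -0.43, -0.57 and -0.71 under the 4 scalings in that order, -1.16 at a floor of 5 FPKM and -1.30 without shared members. For old against young tumor-bearing brain, -1.36, it was -1.01, -0.95, -1.17 and -1.20, then -0.90 with a pseudocount of 1, -1.20 with no floor and -1.58 without shared members. The median of the old minus young tumor ratios, -0.98, was -0.60, -0.41, -0.55 and -0.69, then -0.74 with a pseudocount of 1 and -1.10 without shared members. For old against young naive brain, -0.13, it was -0.27 by fragments, -0.36 by equal totals, -0.26 without the highest genes and -0.27 without shared members. Of counts, the 1 higher member there became 0 under equal totals, a pseudocount of 1 or a floor of 5 FPKM. The 22 lower members of the old against the young tumor-bearing library became 13 at a floor of 5 FPKM. That floor leaves out Airn, Dlk1, Magel2, Mirg, Mkrn3, Rtl1, Ube3a, Usp29 and Zdbf2, which are under it in both libraries, so fewer members entered. The 17 lower old minus young ratios became 11 by fragments, and the 1 higher member of the young tumor comparison became 2 with no floor. Shares of all genes at these settings are not given here, so these counts are not read as results about the members.

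Relative to neuron markers the direction turned for most lower members. The medians became 1.45 in the old tumor comparison, 0.92 for old against young tumor-bearing brain, 1.29 for the old minus young ratios and 0.16 in the young tumor comparison. The medians of all genes that entered became 2.29, 1.99, 2.03 and 0.21. Members at least 2-fold higher became 22, 15 and 20 in the first 3 of these, where 81.6%, 77.3% and 75.5% of all genes were, and 0 were lower. In the old tumor comparison the log2 ratio became 0.38 for Meg3, 0.16 for Rian, 0.38 for Mirg, 0.46 for Rtl1, 0.59 for Zrsr1, 0.40 for Ndn, 0.46 for Nap1l5, 1.45 for Gnas, 0.83 for Grb10, 1.17 for Impact, 0.23 for Zdbf2, 1.29 for Inpp5f, 1.09 for Trappc9 and 0.015 for Kcnk9. For old against young tumor-bearing brain it became 0.41 for Dlk1, 0.26 for Meg3, 0.30 for Mirg, 0.74 for Rtl1, 0.45 for Zrsr1, 0.92 for Peg3, 1.0 for Usp29, 0.0097 for Snrpn, 0.97 for Ube3a, 0.69 for Nnat, 1.06 for Blcap, 0.34 for Grb10, 0.81 for Impact and 0.66 for Inpp5f. The old minus young ratio became 0.81 for Igf2r, 0.43 for Zrsr1, 1.14 for Peg3, 0.33 for Ndn, 0.46 for Nap1l5, 1.20 for Gnas, 0.80 for Grb10, 1.17 for Impact, 0.41 for Zdbf2 and 0.77 for Trappc9.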
